A study of Rattus norvegicus with 6 samples.

Results

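The 10 genes described here encode the machinery that decides whether a cell leaves G1: the D cyclins Ccnd1, Ccnd2 and Ccnd3, the cyclin-dependent kinases Cdk4, Cdk6 and Cdk2, the CDK inhibitors Cdkn1b, Cdkn1c and Cdkn2c, and the retinoblastoma gene Rb1. They were taken by gene symbol from the deposited table of read counts, in which all 10 were found among 20609 genes, each in a single row. The libraries came from PC12 cells, a line derived from a rat pheochromocytoma. Control (Ctrl) libraries (3) were from cells transfected with a control plasmid, and PCBP1-OE libraries (3) from cells transfected to overexpress PCBP1, an RNA-binding protein that prefers poly(C) stretches. Per the methods the construct carried an EGFP tag and was delivered by Lipofectamine, and the time from transfection to RNA-seq harvest is not named. The paper's introduction calls the overexpression stable. No drug, toxin or growth factor withdrawal is named for either group, and the labels do not say whether the replicates came from separate cultures, so that p-values measure the spread between these libraries only.

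D cyclins are made in response to growth signals and bind CDK4 and CDK6. These complexes start the phosphorylation of the retinoblastoma protein, which otherwise holds E2F transcription factors inactive, and CDK2 with cyclin E or A completes it. INK4 inhibitors such as p18, the product of Cdkn2c, bind CDK4 and CDK6 directly, while the CIP/KIP inhibitors p27 (Cdkn1b) and p57 (Cdkn1c) act mainly on CDK2 complexes. PC12 cells divide in serum and leave the cell cycle when nerve growth factor turns them toward neurons.

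The libraries held 19730209 to 22315623 counts on genes, of which 7.53% to 8.42% were on mitochondrial genes. Pcbp1 was not analysed here, and the overexpression itself is therefore unchecked in these counts. The authors report higher PCBP1 mRNA by qRT-PCR and more PCBP1 protein by western blot in the PCBP1-OE cells. The labelled cell type was compared with its markers. Of the 9 chromaffin cell markers matched in the table, Chga, Chgb, Dbh, Ddc and Phox2a had at most 9 counts in any library, while Scg2 had 2607 to 3553, Snap25 197 to 266, Th 141 to 185 and Slc18a1 17 to 28. The glial lineage gene Sox10 had 7160 to 9007 counts and S100b 4143 to 5339. The chromaffin list was thus split in the cells labelled PC12, with 5 of 9 markers at or near 0 and Scg2 carrying most of its summed level. Summed over its markers, the glial list (6 of 6 matched) was at 620 to 665 CPM in controls and 587 to 607 CPM in PCBP1-OE. The fibroblast list (4 of 6 matched) was at 224 to 229 and 199 to 211 CPM, nearly all of it Pdgfra, with Dcn and Thy1 under 10 counts. The leukocyte list (5 of 6 matched), with 3 markers under 10 counts, was at 6.87 to 7.86 and 6.18 to 6.35 CPM, while the chromaffin list, at 162 to 192 and 148 to 165 CPM, and the endothelial list (3 of 4 matched, 2 of them under 10 counts), at 4.07 to 5.62 and 4.95 to 5.90 CPM, overlapped between groups. The part of these marker levels in the results below was not tested. In bulk libraries fewer cells of one kind and less RNA per cell cannot be told apart.

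Cdkn1c was almost silent, and the other 9 genes had enough counts for a test. Rb1 and Cdkn1b rose in PCBP1-OE and Ccnd3 fell, while the remaining 6 genes did not pass the threshold. All of these changes were below 2-fold. By the quasi-likelihood test of edgeR, adjusted over 12624 genes by Benjamini-Hochberg, 3 of the 9 genes had a false discovery rate (FDR) of 0.05 or less, 2 higher and 1 lower. Among all genes tested 9.45% were called, 4.45% higher and 5.0% lower, and 0.190% were called with a change of at least 2-fold. The split over all genes, 562 higher and 631 lower, became 655 and 427 with upper-quartile scaling, which moved the median log2 fold change of all genes from 0.0029 to 0.023.

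The median log2 fold change of the 9 genes was -0.061. In 8 of the 9 the 3 libraries of one group lay wholly above the 3 of the other, 3 higher and 5 lower in PCBP1-OE, where the shares among all genes tested were 30.6% in either direction, 14.1% higher and 16.5% lower. With upper-quartile scaling 6 of the 9 were separated, because Ccnd1 and Cdkn2c then overlapped.

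The calls changed with single libraries left out, in fits of 2 libraries against 3. Calls over all genes also moved, from 1193 to 246, 48 and 2860 without control replicates 1, 2 and 3. They were 169, 136 and 697 without PCBP1-OE replicates 1, 2 and 3. The loss of a replicate and the choice of library were not told apart. Without control replicate 1, control replicate 2 or PCBP1-OE replicate 1, 0 of the 9 genes passed (edgeR's quasi-likelihood test; 5, 3 and 5 genes at an unadjusted p under 0.05; no other tool was run on these subsets). Without PCBP1-OE replicate 2 only Cdkn1b passed, without PCBP1-OE replicate 3 only Rb1, and without control replicate 3 there were 5, with Cdkn2c and Cdk4 added. With control replicate 3 and PCBP1-OE replicate 3 both left out, 4 passed: Rb1, Cdkn1b, Ccnd3 and Cdk4.

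**Figure D1:**
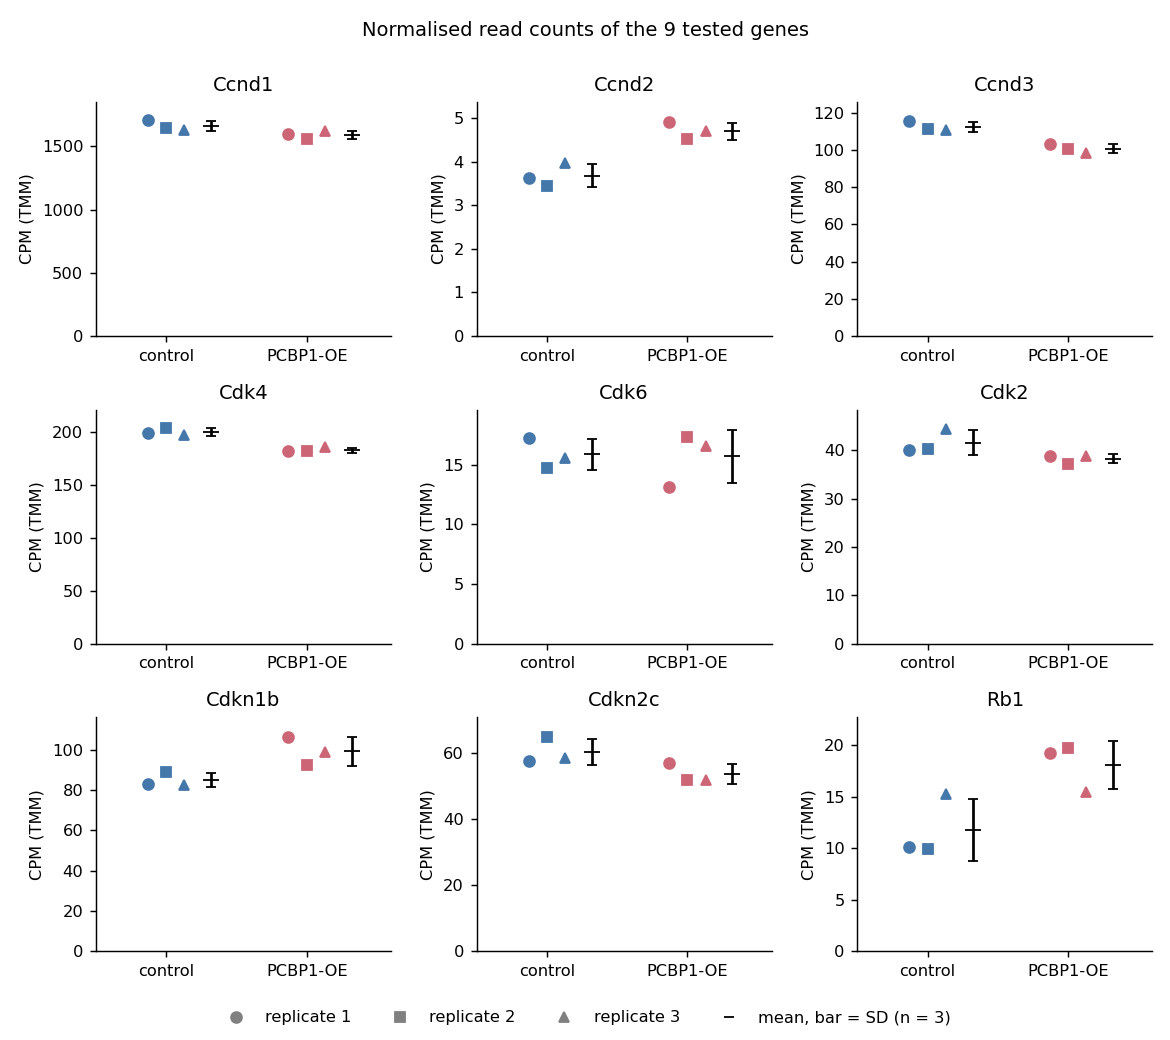
Normalised read counts (CPM after TMM scaling, axes from 0) of the 9 tested genes in each library, with circles, squares and triangles for replicates 1, 2 and 3 and black bars for the mean ± SD (n = 3). Rb1 and Cdkn1b lie higher and Ccnd3 lower in PCBP1-OE, and control replicate 3 of Rb1 lies just below PCBP1-OE replicate 3.

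RefSeq promoter windows (build GRCr8, a later assembly than the Rnor_6.0 alignment, 250 bases before to 50 after the start used in that table) were matched for 6 of the 10 genes. The windows of the 3 called genes are shown because these are the members that moved, and that of Cdk4 because it holds the same letters 3 times. Capitals mark 4 kinds of match on either strand: the E2F letters TTTCCCGC, TTTGGCGC or TTTCGCGC, the cyclic AMP response core TGACGT, the E-box CACGTG, and CCAAT. Each line gives the gene, its window and strand, and the sequence from 5′ to 3′ of the gene's strand.
Rb1, chr15:54911808-54912107, minus strand: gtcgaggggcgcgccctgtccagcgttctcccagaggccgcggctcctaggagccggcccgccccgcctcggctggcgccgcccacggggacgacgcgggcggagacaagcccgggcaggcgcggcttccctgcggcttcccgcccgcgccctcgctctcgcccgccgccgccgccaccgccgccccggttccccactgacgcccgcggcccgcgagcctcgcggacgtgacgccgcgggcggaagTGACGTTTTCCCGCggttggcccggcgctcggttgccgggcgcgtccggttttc
Cdkn1b, chr4:169491254-169491553, plus strand: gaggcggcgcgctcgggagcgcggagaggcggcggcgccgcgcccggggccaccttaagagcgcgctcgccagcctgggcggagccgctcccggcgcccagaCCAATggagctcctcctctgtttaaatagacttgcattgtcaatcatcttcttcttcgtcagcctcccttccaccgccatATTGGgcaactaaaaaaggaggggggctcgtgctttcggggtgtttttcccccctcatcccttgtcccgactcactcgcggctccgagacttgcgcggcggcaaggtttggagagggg
Ccnd3, chr9:20897826-20898125, minus strand: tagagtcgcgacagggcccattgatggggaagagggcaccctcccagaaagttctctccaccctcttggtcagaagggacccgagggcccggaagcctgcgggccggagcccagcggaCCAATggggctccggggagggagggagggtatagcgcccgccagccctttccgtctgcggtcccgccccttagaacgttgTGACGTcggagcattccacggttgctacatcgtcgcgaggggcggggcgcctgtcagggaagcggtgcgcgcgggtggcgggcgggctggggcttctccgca
Cdk4, chr7:64771203-64771502, plus strand: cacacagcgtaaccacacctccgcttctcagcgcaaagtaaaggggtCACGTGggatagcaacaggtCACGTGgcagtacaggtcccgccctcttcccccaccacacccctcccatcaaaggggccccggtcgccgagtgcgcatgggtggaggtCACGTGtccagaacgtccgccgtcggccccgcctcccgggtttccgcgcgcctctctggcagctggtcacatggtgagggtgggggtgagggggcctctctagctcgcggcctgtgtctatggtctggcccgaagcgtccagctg

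The Rb1 window was the only one of the 6 with E2F letters, which began 3 bases into the transcript, directly after a TGACGT that began at position -4. E2F letters were found in 1.72% of 33469 rat promoter windows of this length, and TGACGT in 7.94%. The Cdkn1b window held CCAAT at -148 and its reverse complement at -68, and that of Ccnd3 held CCAAT at -132 and TGACGT at -52, where 37.5% of all windows held CCAAT. Cdk4 had CACGTG at -203, -183 and -95, letters present in 6.42% of windows. The Cdk2 window held TGACGT at -126 and CCAAT at -117, and that of Cdkn2c had none of these letters. Matches of letters are a description and not evidence of binding.

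Rb1 (ENSRNOG00000016029, chromosome 15), the pocket protein gene that restrains E2F, changed most among the 9. It had 199, 208 and 342 counts in control replicates 1, 2 and 3 and 424, 398 and 303 in PCBP1-OE. Normalised for library size by TMM, these were 10.2, 9.97 and 15.3 CPM against 19.2, 19.7 and 15.5 CPM. The groups were separated by a narrow margin, since control replicate 3 and PCBP1-OE replicate 3 were nearly equal. The means were 11.8 ± 3.0 CPM in Ctrl, against 18.1 ± 2.33 CPM in PCBP1-OE (mean ± SD, n = 3 per group), a log2 fold change (log2FC, PCBP1-OE over control) of 0.62 (standard error, SE, 0.15, 95% interval 0.29 to 0.95) or 1.54-fold, with an adjusted p of 0.0293 by the edgeR test. Its log2FC exceeded that of 97.1% of all genes tested. Of the fits that left out 1 library, the call was lost without control replicate 1 (adjusted p = 0.120), control replicate 2 (0.156) or either of PCBP1-OE replicates 1 (0.126) and 2 (0.117), and without control replicate 3 the log2FC was 0.85 (adjusted p = 0.000298, the alternatives ranging from 1.995e-06 to 0.156).

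In the TMM factor and the mitochondrial share the replicates 3 also lay nearest to the other group, which was not so for total counts or for the share of counts in the 10 top genes. The TMM factors were 0.968, 0.983 and 1.01 in Ctrl, against 1.03, 1.02 and 0.994 in PCBP1-OE, and the mitochondrial shares 8.42%, 8.24% and 7.99% against 7.53%, 7.91% and 8.21%. On these measures control replicate 3 lay on the PCBP1-OE side of PCBP1-OE replicate 3. Their part in the Rb1 difference was not tested. Relative to Cdk4 within the same library, Rb1 was at 5.11, 4.90 and 7.76 counts per 100 Cdk4 counts in Ctrl, against 10.6, 10.9 and 8.34 in PCBP1-OE.

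Among the inhibitors, Cdkn1b (ENSRNOG00000007249, chromosome 4), which encodes p27, had 1627, 1852 and 1848 counts in Ctrl, against 2341, 1861 and 1934 in PCBP1-OE. Its normalised levels were 83.0, 88.7 and 82.4 CPM in Ctrl, against 106, 92.2 and 98.7 CPM in PCBP1-OE. Every PCBP1-OE library was above every control, with replicate 1 the highest and replicate 2 close to the controls. The means of 84.7 ± 3.50 and 99.1 ± 7.0 CPM (SD, n = 3 per group) gave a log2FC of 0.23 (SE 0.056, 95% interval 0.11 to 0.35), or 1.17-fold, with an adjusted p of 0.0289 by the edgeR test. With 1 library left out, the call did not hold without control replicate 1 (adjusted p = 0.110), control replicate 2 (0.0872) or either of PCBP1-OE replicates 1 (0.144) and 3 (0.0619).

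Cdkn2c (ENSRNOG00000008956, chromosome 5), the INK4 inhibitor p18, lay in the opposite direction and did not pass. Its levels were 57.5, 64.8 and 58.5 CPM in Ctrl, against 56.9, 51.6 and 51.9 CPM in PCBP1-OE, from 1016 to 1352 counts per library. The groups were separated by a narrow margin between control replicate 1 and PCBP1-OE replicate 1. The log2FC was -0.17 (SE 0.061, 95% interval -0.30 to -0.039, adjusted p = 0.0886 by the edgeR test). It passed without a filter (0.0428) and without control replicate 3 (0.0423), and its adjusted p lay between 0.0423 and 0.332 over the alternatives.

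Cdkn1c (ENSRNOG00000059500, chromosome 1), which encodes p57, had 1 count in control replicate 3, 1 in PCBP1-OE replicate 1 and 0 in the other 4 libraries. A count of 0 allows up to 3 counts, or 0.134 to 0.152 CPM in these libraries for counting error alone, so a difference in Cdkn1c was not detectable at this depth and no fold is given.

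Ccnd1 (ENSRNOG00000020918, chromosome 1), the D cyclin most tied to mitogen signalling, had the most counts of the family. It was at 1708, 1645 and 1628 CPM in Ctrl, against 1595, 1558 and 1622 CPM in PCBP1-OE, from 31431 to 36516 counts. The groups were barely separated, at control replicate 3 and PCBP1-OE replicate 3. Its log2FC of -0.061 (SE 0.042, adjusted p = 0.368 by the edgeR test) had a 95% interval of -0.15 to 0.030, which corresponds to 0.900 to 1.02 times the control level.

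Ccnd3 (ENSRNOG00000050258, chromosome 9), the D cyclin known best for its role in lymphocyte development, fell. Counts were 2268, 2328 and 2479 in Ctrl, against 2278, 2024 and 1928 in PCBP1-OE, or 116, 111.5 and 110.5 CPM against 103, 100.3 and 98.4 CPM. No library of one group reached the range of the other, and the spread within each group was small beside the distance between them. The means were 113 ± 2.72 and 101 ± 2.50 CPM (SD, n = 3 per group), a log2FC of -0.16 (SE 0.044, 95% interval -0.25 to -0.066), or 0.895 times the control level, with an adjusted p of 0.0395 by the edgeR test. Its call was lost without any 1 library other than control replicate 3 (adjusted p = 0.124 to 0.192 in those 5 fits) with upper-quartile scaling (0.0603) and without a filter (0.0539), and the log2FC stayed between -0.13 and -0.18 in all 14 alternatives.

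Ccnd2 (ENSRNOG00000057710, chromosome 4) was the D cyclin with the fewest counts, 71, 72 and 89 in Ctrl, against 108, 91 and 92 in PCBP1-OE. Its levels of 3.62, 3.45 and 3.97 CPM in controls were all below the 4.90, 4.51 and 4.70 CPM in PCBP1-OE. The log2FC of 0.35 (SE 0.15, 95% interval 0.023 to 0.68) did not pass (adjusted p = 0.149 by the edgeR test), in the reported fit or in any of the 14 alternatives, and rests on 71 to 108 counts per library.

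**Figure D2:**
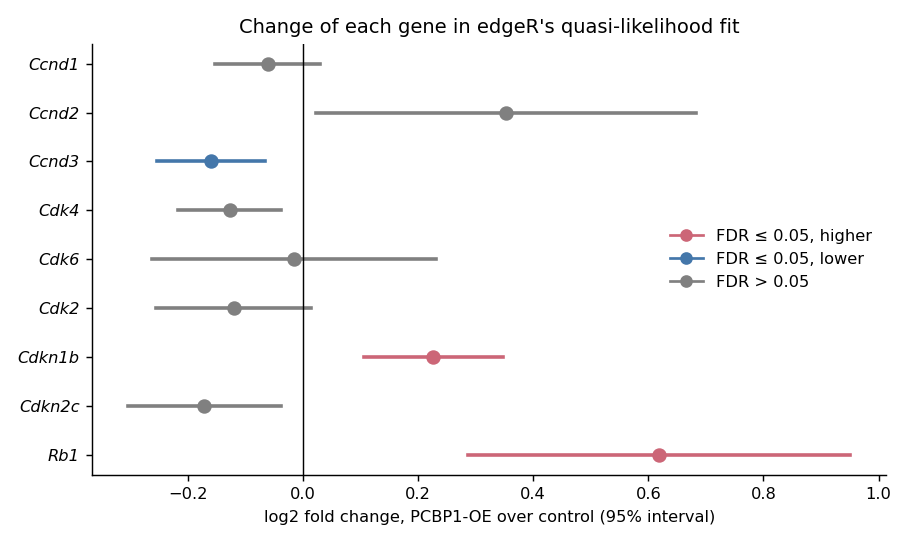
Log2 fold change of each tested gene in PCBP1-OE over control with its 95% interval from edgeR's quasi-likelihood fit; red marks an FDR of 0.05 or less and higher, blue an FDR of 0.05 or less and lower, grey the rest. Rb1 (0.62) and Cdkn1b (0.23) lie to the right of 0 and Ccnd3 (-0.16) to the left, and Ccnd2 has the second widest interval.

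For the kinases, no change passed. Cdk4 (ENSRNOG00000025602, chromosome 7) was at 199, 203 and 197 CPM in Ctrl, against 181.3, 181.3 and 185 CPM in PCBP1-OE, from 3632 to 4410 counts. All PCBP1-OE libraries were lower, with a log2FC of -0.13 (SE 0.042, 95% interval -0.22 to -0.038, adjusted p = 0.0682 by the edgeR test). Without control replicate 3 Cdk4 passed, with an adjusted p of 0.0368 in a range of 0.0263 to 0.295 over the alternatives.

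Cdk2 (ENSRNOG00000006469, chromosome 7), the partner of cyclins E and A, was at 40.0, 40.2 and 44.5 CPM in Ctrl, against 38.9, 37.1 and 38.8 CPM in PCBP1-OE. These levels were separated, but the log2FC of -0.12 (SE 0.062, 95% interval -0.26 to 0.014) did not pass (adjusted p = 0.225 by the edgeR test). Cdk6 (ENSRNOG00000009258, chromosome 4), the second kinase of D cyclins, overlapped fully, at 17.2, 14.8 and 15.6 CPM in Ctrl, against 13.2, 17.3 and 16.6 CPM in PCBP1-OE. Its log2FC was -0.015 (SE 0.11, adjusted p = 0.945 by the edgeR test), with a 95% interval of -0.26 to 0.23 that leaves room for changes in either direction of up to about the size seen in Cdkn1b.

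**Figure D3:**
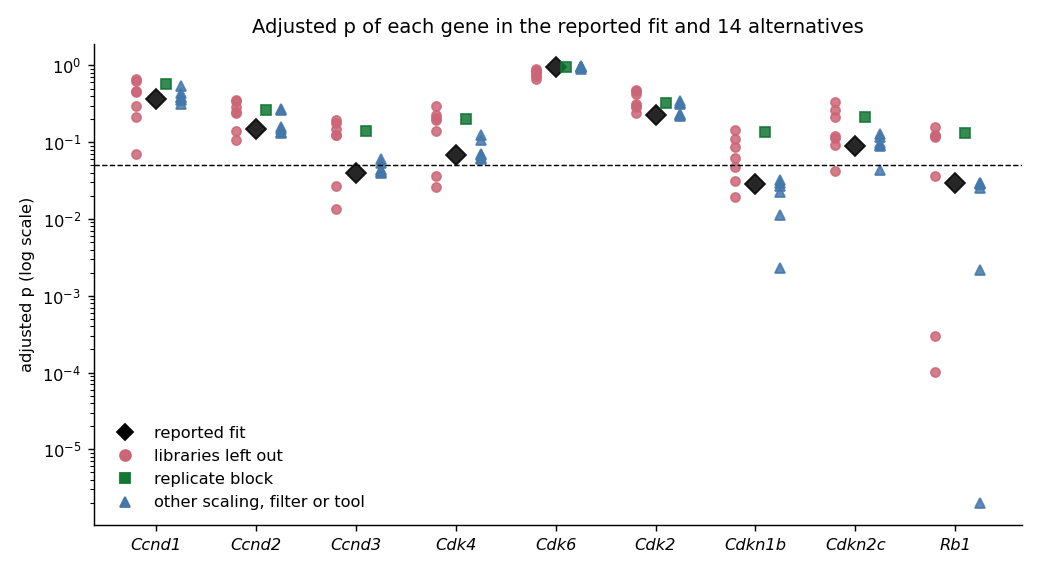
Adjusted p of each tested gene on a log axis in the reported fit (black diamonds), with libraries left out (red circles), with a replicate block (green squares) and with other scaling, filter or tool (blue triangles); the dashed line is 0.05. The diamonds of Ccnd3, Cdkn1b and Rb1 lie below the line, and each of these genes has circles on both sides of it.

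Ratios within a library do not depend on how libraries are scaled, so the balance of the family was compared in that form. They are ratios of reads and not of molecules, because gene lengths differ. Ccnd1 took 93.5% ± 0.0237 of D cyclin counts in Ctrl, against 93.8% ± 0.205 in PCBP1-OE (mean ± SD, n = 3 per group). The share of Ccnd3 was 6.33%, 6.34% and 6.34% in Ctrl, against 6.07%, 6.03% and 5.71% in PCBP1-OE. Ccnd2 made up 0.198%, 0.196% and 0.228% in Ctrl, against 0.288%, 0.271% and 0.272% in PCBP1-OE. None of these 3 shares overlapped between groups, and each two-sided exact permutation test gave p = 0.1, the smallest that 3 libraries against 3 allow (adjusted p = 0.167 over 5 ratios). The 3 shares are parts of a single total in each library, so they are not independent results. The higher share of Ccnd1 is not a rise in its own level, whose log2FC was -0.061.

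The 3 inhibitors together were at 7.69, 8.72 and 8.09 counts per 100 D cyclin counts in Ctrl, against 9.58, 8.65 and 8.73 in PCBP1-OE. These overlapped, with a difference of 0.825 in the means (exact permutation test, p = 0.2, adjusted 0.25). Its parts lay in opposite directions, with Cdkn1b at 4.77 ± 0.253 counts per 100 D cyclin counts in controls and 5.84 ± 0.358 in PCBP1-OE, and Cdkn2c at 3.39 ± 0.269 and 3.15 ± 0.172 (SD, n = 3 per group). Cdk4 took 92.6% ± 0.610 of the summed Cdk4 and Cdk6 counts in Ctrl, against 92.1% ± 1.02 in PCBP1-OE (mean ± SD, n = 3 per group; exact permutation test, p = 0.4, adjusted 0.4).

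**Figure D4:**
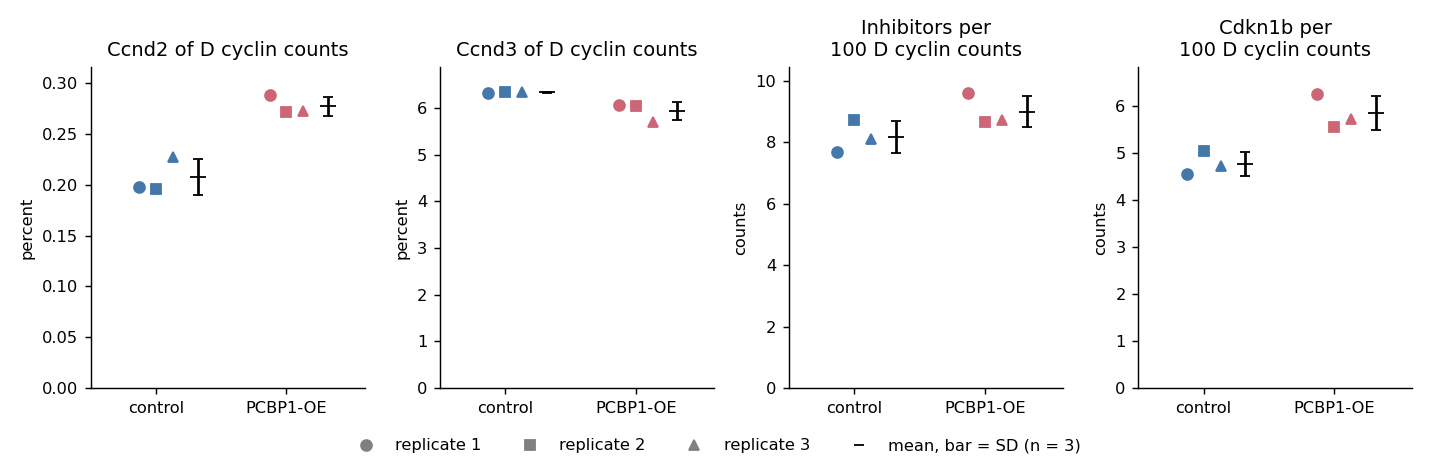
Ratios of counts within each library, with axes from 0, for the Ccnd2 and Ccnd3 shares of D cyclin counts and for the 3 inhibitors and Cdkn1b alone per 100 D cyclin counts; symbols are replicates and bars the mean ± SD (n = 3). The Ccnd2, Ccnd3 and Cdkn1b panels show separated groups, and in the panel of all inhibitors control replicate 2 (8.72) overlaps the PCBP1-OE range.

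Other genes of the pathway were counted from 6 lists, of which 74 of 76 genes were matched in the table and 73 tested. An FDR of 0.05 or less was reached by 13 of the 73, 3 higher and 10 lower, or 17.8% against 9.45% of all genes. This count was 0 without control replicate 2 (edgeR's quasi-likelihood test, with 21 genes at an unadjusted p under 0.05) and 5, 24, 4, 3 and 7 without control replicates 1 and 3 and PCBP1-OE replicates 1, 2 and 3. The cyclin E and A genes (Ccne1, Ccne2, Ccna1 and Ccna2), the CDK-activating kinase Cdk7 with its partners Ccnh and Mnat1, and the phosphatase gene Cdc25a gave 0 of 8 called by edgeR, 1 at an unadjusted p under 0.05, 1 called by DESeq2 and 0 by limma-voom. Ccne1, cyclin E1, was at 24.6, 24.9 and 20.7 CPM in Ctrl, against 19.2, 20.0 and 17.5 CPM in PCBP1-OE, a log2FC of -0.31 (SE 0.095, adjusted p = 0.0597 by edgeR). Ccne2 overlapped between groups, with a log2FC of 0.17 (SE 0.11, adjusted p = 0.334).

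Of the other CDK inhibitors, Cdkn1a, the p53-induced inhibitor p21, was at 552, 541 and 554 CPM in Ctrl, against 570, 603 and 603 CPM in PCBP1-OE. Its log2FC of 0.11 (SE 0.043) did not pass (adjusted p = 0.116 by the edgeR test). Cdkn2b had 0 to 3 counts per library, and Cdkn2a and Cdkn2d are not analysed here. The pocket protein relatives of Rb1 did not pass either: Rbl1, with 92 to 159 counts, had a log2FC of 0.25 (SE 0.18, adjusted p = 0.375) and Rbl2 -0.0014 (SE 0.085, adjusted p = 0.993).

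E2f1, the E2F factor most closely restrained by the retinoblastoma protein, fell. It was at 53.6, 56.0 and 51.6 CPM in Ctrl, against 45.3, 42.1 and 40.7 CPM in PCBP1-OE, so that the groups were clearly apart. The log2FC was -0.33 (SE 0.060, adjusted p = 0.00977 by the edgeR test), or 0.795 times the control level. Of the fits that left out 1 library, those without control replicate 2 or PCBP1-OE replicate 2 lost the call. E2f1 was the 1 gene called among 12 pocket protein, E2F and DP genes, or 8.33% against 9.45% of all genes. The median log2FC of this list was -0.033.

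Among 24 E2F target genes of S phase, 6 fell and 0 rose by edgeR's test (12 at an unadjusted p under 0.05; DESeq2 and limma-voom also called 6 lower and 0 higher), or 25% against 5.0% called lower among all genes, and the median log2FC was -0.14 against 0.0029 over all genes. Tk1, thymidine kinase, was at 178, 167 and 151 CPM in Ctrl, against 124, 128 and 131 CPM in PCBP1-OE, a log2FC of -0.37 (SE 0.058, adjusted p = 0.00586 by the edgeR test). The replicative helicase subunits Mcm3, Mcm7 and Mcm2 had log2FCs of -0.26, -0.22 and -0.20, with adjusted p-values of 0.00777, 0.0137 and 0.0220. For Mybl2, a transcription factor of the late cell cycle, the log2FC was -0.24 (adjusted p = 0.0271). In all of these named targets the groups did not overlap. Over the whole list the groups were apart in 12 of the 24, all lower, where 16.5% of all genes tested were separated in that direction. The number of targets that fell was 2 without control replicate 1, 0 without control replicate 2 (9 at an unadjusted p under 0.05), and 10 without control replicate 3. It was 2, 2 and 3 in the absence of PCBP1-OE replicates 1, 2 and 3. Rrm2 was called higher without a filter, without control replicate 3, and with replicate 3 of both groups left out.

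Upstream of the D cyclins and of Cdkn1b, 19 transcription factors and kinases were listed, of which 5 were called, or 26.3% against 9.45% of all genes. The transcription factors Junb, Myc and Egr1 rose. Junb was at 235, 217 and 223 CPM in Ctrl, against 266, 273 and 269 CPM in PCBP1-OE (log2FC 0.26, SE 0.044, adjusted p = 0.00863 by the edgeR test). Myc was at 161, 144 and 165 CPM in Ctrl, against 182, 188 and 188 CPM in PCBP1-OE (0.25, SE 0.053, adjusted p = 0.0178), and Egr1 had a log2FC of 0.34 (SE 0.077, adjusted p = 0.0221). The kinases Akt1 and Mapk3, which carry growth factor signals, fell, with log2FCs of -0.20 (SE 0.042, adjusted p = 0.0178) and -0.20 (SE 0.045, adjusted p = 0.0227). The 5 calls became 2, 0 and 9 without control replicates 1, 2 and 3, and 1, 1 and 3 in the absence of PCBP1-OE replicates 1, 2 and 3, and Junb was among them each time except without control replicate 2.

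In the list of ubiquitin ligase parts that act on p27, cyclin D or cyclin E, 1 of 9 was called, or 11.1%, close to the 9.45% of all genes. This was Cks1b, a cofactor of the SCF ligase that marks p27 for degradation, with 92.3, 91.0 and 77.1 CPM in Ctrl, against 72.8, 71.3 and 77.4 CPM in PCBP1-OE. Control replicate 3 and PCBP1-OE replicate 3 overlapped, and the log2FC was -0.23 (SE 0.066, adjusted p = 0.0437 by the edgeR test). It was not called with upper-quartile scaling, by limma-voom, or without any 1 library other than control replicate 3.

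**Figure D5:**
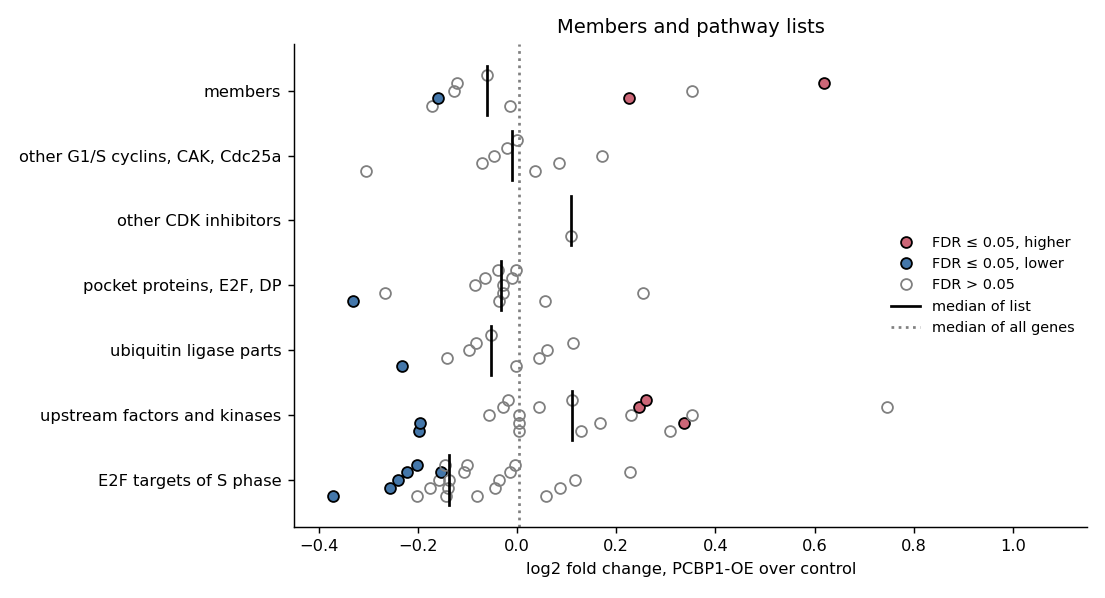
Log2 fold change in PCBP1-OE over control of the 9 tested members and the tested genes of the 6 pathway lists; filled points have an FDR of 0.05 or less (red higher, blue lower), open points do not, black lines are list medians and the dotted line is the median of all genes. The E2F target list has 6 blue and 0 red points and a median of -0.14, and the upstream list has 3 red and 2 blue points.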

How the data were processed

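RNA-seq libraries of PC12 cells, 3 control and 3 PCBP1-OE, were assigned to groups by their titles. The deposited values are raw counts per gene. Per the methods the authors trimmed with FASTX-Toolkit, used TopHat2 for alignment (Rnor_6.0) and kept unique reads. The submitters' processing notes list the human build GRCh38, while the IDs in the table are rat. Libraries were strand-specific (dUTP) and the genome was Ensembl's. Which counter was run, with which annotation, and whether it used strand, is not given in the sources used here. Counts of overlapping genes are therefore uncertain. Levels were not corrected for gene length.

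Low counts were filtered with filterByExpr (minimum count 10, minimum total 15), which kept 12624 of 20609 genes. Scaling was by TMM, and testing by quasi-likelihood in edgeR 4.0.16 under R 4.3.3, with Benjamini-Hochberg adjustment and a call at an FDR of 0.05. Intervals are 95% and use the moderated degrees of freedom. CPM values are TMM-scaled, except the counting limit given for Cdkn1c. Ratios were tested by exact permutation in scipy 1.17.1. Replicate numbers were not used as a block in the reported fit.

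Other settings tried were upper-quartile or RLE scaling, a filter of 1 CPM in 3 libraries or none, DESeq2 1.42.0, limma-voom (limma 3.58.1), a replicate block, and libraries left out; the omission of replicate 3 of both groups was chosen after seeing the data, as were the counts over all genes and pathway lists under each alternative. The members and lists were chosen with earlier results of these data known. Named were all members, 9 partner genes whatever their result, and the 12 list genes with the smallest p among those called; 2 of the 9 were not matched. The pipeline was tested on simulated data.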

Additional observations from a re-analysis of the deposited data

How the results depend on the processing

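The number of the 9 tested members called, 3 as reported, was 0 with the replicate block (adjusted p = 0.133 for Rb1, 0.136 for Cdkn1b and 0.139 for Ccnd3), and 0 to 5 with libraries left out; it was 2 or 3 with other scaling, filters or tools. Without a filter the 3 were Rb1, Cdkn1b and Cdkn2c, and Ccnd3 was at an adjusted p of 0.0539. Over all genes the 1193 calls became 2090 without a filter, 16 with the replicate block and 48 to 3115 with libraries left out. Over the pathway lists the 13 calls became 0, E2f1 included, with the replicate block (22 genes at an unadjusted p under 0.05) and 0 to 27 with libraries left out. The causes of these shifts were not tested. The labels do not say whether libraries of the same number belong together. The deviations of same-numbered libraries from their group means correlated at -0.0776, -0.0514 and -0.0428, and no library correlated best with its own number. Correlations over all genes cannot exclude a pairing that affects some genes. In the block 5 members had an unadjusted p under 0.05 by edgeR's quasi-likelihood test. Members with groups apart numbered 8, and 6 with upper-quartile scaling.

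Cdk6 changed sign, from a log2 fold change of -0.015 to 0.0045 with upper-quartile scaling, 0.054 without control replicate 1 and 0.099 without PCBP1-OE replicate 1; with 1 library left out it ranged from -0.093 to 0.099. The other 8 tested members kept their direction in all 14 alternatives. The 5 ratios within libraries kept their direction with each library left out, where 2 libraries against 3 allow no p below 0.2. Cdkn1c and Cdkn2b had too few counts to test.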

Other observations

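The cyclin and CDK genes other than the members were counted by their symbols, a set chosen after values had been seen. This set included Ccne1, Ccne2, Ccna1, Ccna2, Ccnh and Cdk7, which were also counted in the pathway lists above. It also took in Ccndbp1, which is not itself a cyclin and was not called. Of 38 tested, 7 were called by edgeR's quasi-likelihood test, 2 higher and 5 lower, where 4.45% of all genes tested were called higher and 5.0% lower. Their median log2FC was 0.0082. Cdk1, the mitotic kinase, was at 180, 172 and 158 CPM in Ctrl, against 123, 125 and 135 CPM in PCBP1-OE, a log2FC of -0.41 (SE 0.056, adjusted p = 0.00263). Cdk5, a kinase best known from neurons, was at 39.8, 40.4 and 38.7 CPM in Ctrl, against 30.4, 32.6 and 30.7 CPM in PCBP1-OE (log2FC -0.35, SE 0.061, adjusted p = 0.00966). Ccnb1 and Cdk16 were also lower, with log2FCs of -0.19 (adjusted p = 0.0390) and -0.19 (adjusted p = 0.0335).

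Cyclin L genes, which act in RNA splicing and transcription, lay in opposite directions. Ccnl1 was at 94.96, 103 and 94.4 CPM in Ctrl, against 128, 112 and 116 CPM in PCBP1-OE (log2FC 0.28, SE 0.056, adjusted p = 0.0135), and Ccnl2 at 194.5, 198 and 179 CPM in Ctrl, against 162, 173 and 168 CPM in PCBP1-OE (-0.18, SE 0.049, adjusted p = 0.0383). Cdk13, a kinase of RNA polymerase II, rose (log2FC 0.34, SE 0.087, adjusted p = 0.0316), although control replicate 3 (50.4 CPM) and PCBP1-OE replicate 3 (49.8 CPM) overlapped. With 1 library left out the number of these 7 genes still called ranged from 1 (without control replicate 2) to 7 (without control replicate 3); with the replicate block it was 0.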
